A study of Mus musculus with 20 samples.

Results

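Procr, Cd34, Fgd5, Vldlr, Angpt1, Adgrg1, Adgrl4 and Esam are 8 genes of the surface and the niche of haematopoietic stem cells, out of 18193 genes with a probe set of their own on the array. The genes were chosen by name and by their measured intensity in KSL against LinNeg and the mature populations on these same arrays. Each gene was read by the probe set annotated to it alone that had the highest mean intensity over 20 arrays. Levels in KSL cells and their differences from the other populations are therefore a description, and no test of them is given. All 8 genes passed the filter on low values.

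RNA of 10 sorted populations of C57BL/6 mouse haematopoietic cells was measured with the Affymetrix Mouse Genome 430 2.0 array, and the labels give 2 biological replicates of each population. KSL is the usual name of the Kit-positive, Sca-1-positive, lineage-negative fraction that holds stem and early progenitor cells, and LinNeg stands for all cells without lineage markers. The 8 mature populations were B220(+) B lymphocytes (B), CD4(+) and CD8(+) T lymphocytes (CD4T and CD8T), NK1.1+ NK cells (NK), CD3ε(+)NK1.1(+) NKT cells (NKT), Ter119(+) erythroblasts (Erythroblast), Gr-1(+) neutrophils (Neutrophil) and Mac-1(+) monocytes/macrophages (Monocyte). No mutant, transgene or treatment is named for any group, and the labels give neither the tissue and animals behind a replicate nor the gates beyond these names. LinNeg as a sorted fraction can include KSL cells. Values are probe set intensities that the authors had brought to one scale per array, with a mean of 100 after the lowest and highest 2% are set aside. Differences are on the log2 scale after 6.75 was added to each intensity, the 25th percentile of all values, so the change of dim genes is understated.

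Stem cells sit in the bone marrow in contact with vessels and stroma, and many of their surface proteins are shared with the endothelium, from which the first stem cells arise in the embryo. Cd34 is a sialomucin and Procr the endothelial protein C receptor, both used to sort stem cells. Esam is a junctional adhesion molecule of the immunoglobulin superfamily, and Adgrg1 (also called Gpr56) and Adgrl4 (also called Eltd1) are adhesion G protein-coupled receptors. Vldlr is a lipoprotein and reelin receptor, Fgd5 an exchange factor for the small GTPase Cdc42 that is known as a stem cell reporter gene in mice, and Angpt1 the ligand of the Tie2 receptor Tek.

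Promoter windows from 250 bases before to 50 after the annotated start were held by the RefSeq table (GRCm38.p6) for 6 of the 8 genes, with Angpt1 and Esam not among them. They are shown for Cd34, Procr and Adgrl4, which had the most matches to the ETS core among these 6 genes, since ETS factors are known regulators of both stem cell and endothelial genes. Capitals mark each GGAA or its reverse complement TTCC, with overlaps allowed.
Cd34 (chr1:194938571-194938870, plus strand): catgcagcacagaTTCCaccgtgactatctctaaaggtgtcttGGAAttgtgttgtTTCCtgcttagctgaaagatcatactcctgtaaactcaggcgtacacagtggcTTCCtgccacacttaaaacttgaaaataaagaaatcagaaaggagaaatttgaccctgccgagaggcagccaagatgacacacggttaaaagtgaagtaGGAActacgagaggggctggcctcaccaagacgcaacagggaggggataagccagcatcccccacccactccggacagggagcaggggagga
Procr (chr2:155750967-155751266, plus strand): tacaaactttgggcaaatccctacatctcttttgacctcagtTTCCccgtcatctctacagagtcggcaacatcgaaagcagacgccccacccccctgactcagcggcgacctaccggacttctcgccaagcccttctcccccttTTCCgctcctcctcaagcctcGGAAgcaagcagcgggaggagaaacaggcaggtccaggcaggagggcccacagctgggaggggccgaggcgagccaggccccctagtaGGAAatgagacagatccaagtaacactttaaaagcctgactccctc
Adgrl4 (chr3:151437632-151437931, plus strand): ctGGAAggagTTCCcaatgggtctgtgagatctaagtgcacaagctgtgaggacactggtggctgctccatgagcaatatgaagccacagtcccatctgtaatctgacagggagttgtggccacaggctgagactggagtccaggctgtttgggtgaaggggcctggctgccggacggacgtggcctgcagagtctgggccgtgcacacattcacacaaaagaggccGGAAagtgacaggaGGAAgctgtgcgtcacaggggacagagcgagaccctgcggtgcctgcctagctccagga
The Cd34 window held 5 matches and those of Procr and Adgrl4 held 4 each, where the median of all 32851 promoter windows was 3 and 96% had at least 1. Counts of 4 or more were found in 46.3% of all windows. The windows not shown had 2 matches for Fgd5, 3 and 2 for the 2 windows of Vldlr, and 2 and 0 for those of Adgrg1, so the 6 genes lie on both sides of the median. The AGATAA motif of GATA factors (11.2% of all windows) and the TGTGGT motif of RUNX factors (16.8%), searched on both strands, had 0 matches in every window of the 6 genes. A match to such short letters is a description of the window and not a binding site.

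Before the levels were read, the arrays were checked against their labels. The arrays of each population correlated best with each other (r across genes 0.954 to 0.972). The lineage genes Ms4a1, Cd4, Cd8a, Cd3e, Alas2 and Ncr1 were high where the labels place them. The erythroid gene Hba-a1 did not set Erythroblast apart, at 12.2 and 49.4 there, 4.23 and 33.4 in NKT and 10.6 and 31.4 in Monocyte. The NK arrays went partly against their label. The summed intensity of the macrophage markers Csf1r, Cd68 and Itgam was 9390 and 7597 in NK, 4648 and 7171 in Monocyte and 3944 and 2839 in Neutrophil. It was 39.3 to 876 in the arrays of B, CD4T, CD8T, NKT and Erythroblast. Most of the NK sum was Csf1r, with a mean of 6364. Itgam went the other way, with a mean of 116 in NK, 455 in Monocyte and 767 in Neutrophil. Ncr1, an activating receptor of NK cells, was nevertheless at 661 ± 108 in NK (SD, n = 2). The Monocyte arrays had neutrophil genes at the level of the Neutrophil arrays, with Ltf at 9475 ± 1039 in Monocyte and 10796 ± 1744 in Neutrophil. In NK, Ltf was at 1012 ± 168 and the neutrophil gene Camp at 1347 ± 128. Calls that count NK among the other mature populations and calls against the mature mean were recomputed with NK left out. Calls for NK itself cannot be recomputed in this way.

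Every one of the 8 genes was highest in KSL, with both KSL arrays above all 18 other arrays, as was true of 5.38% of the 14063 genes tested. The genes chosen for this pattern had to show it. LinNeg came second for 7 of the 8, the exception being Fgd5. In bulk RNA of a sorted fraction, fewer cells that express a gene and less RNA per cell cannot be told apart.

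**Figure D1:**
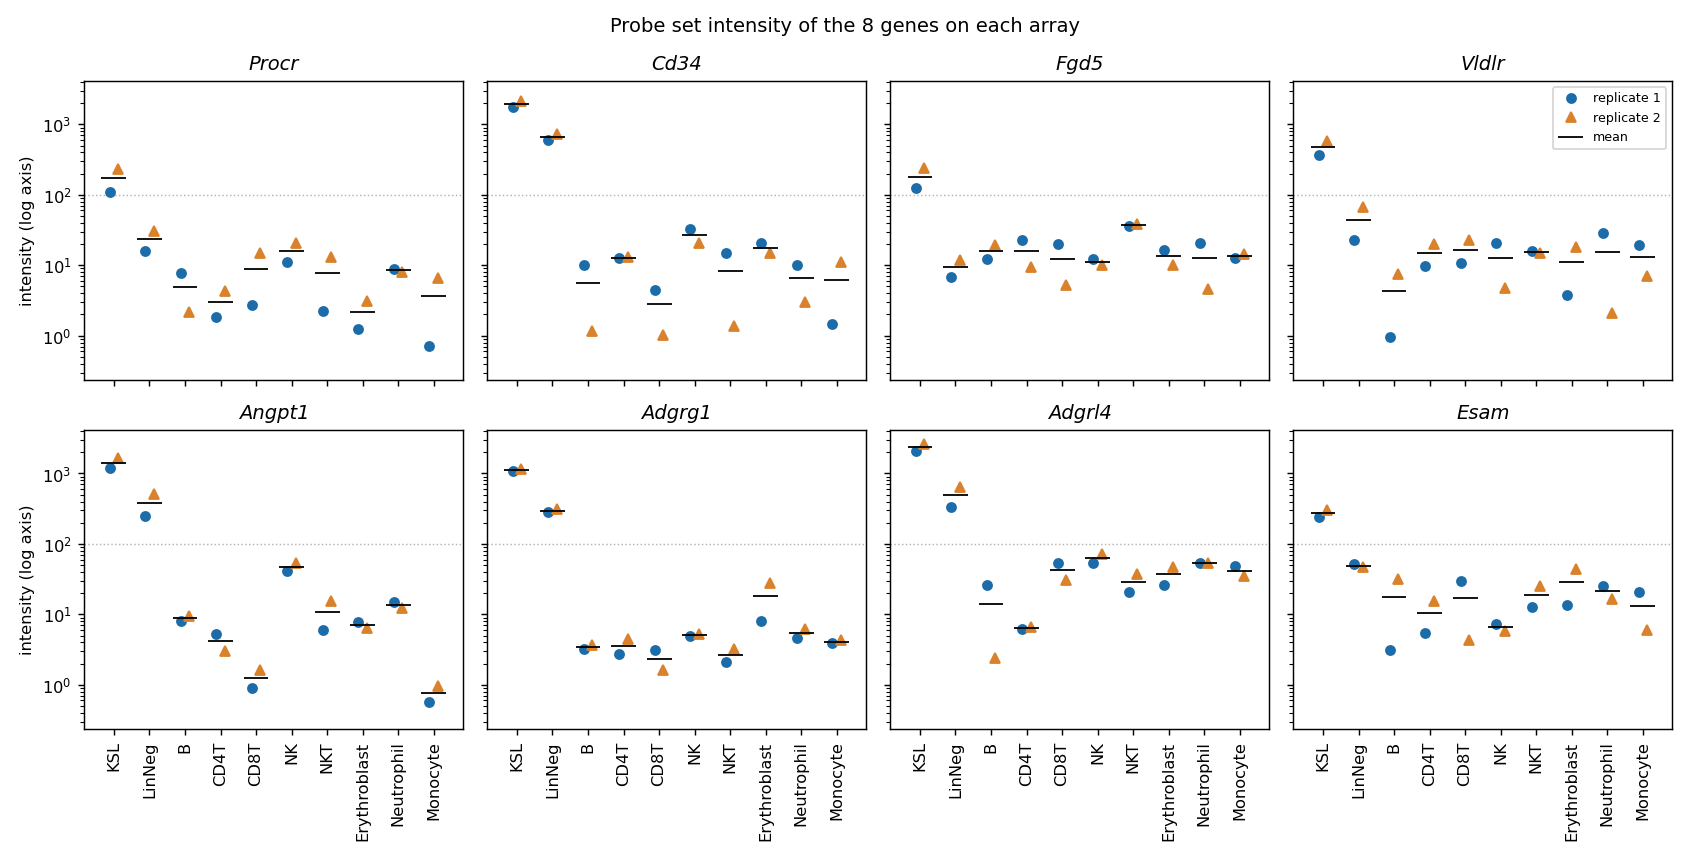
Probe set intensity (log axis) of the 8 genes in the 10 populations, with replicates 1 and 2 as a circle and a triangle, their mean as a bar, and a dotted line at the array mean of 100. Both KSL arrays lie above every other array in all 8 panels, LinNeg lies above all mature arrays in the panels of Cd34, Angpt1, Adgrg1, Adgrl4 and Esam, and Fgd5 is lowest in LinNeg.

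Among the receptors and adhesion molecules, Cd34 had intensities of 1785 and 2149 in KSL, 595 and 741 in LinNeg, and from 1.03 through a median of 10.6 to 32.6 in the 16 mature arrays. The 3 ranges did not overlap. The log2 difference was 1.55 ± 0.50 (limma standard error) for KSL minus LinNeg and 6.98 ± 0.38 for KSL minus the mean of the 8 mature populations.

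Procr, read by a probe set of the _s_at kind that can bind related transcripts, was at 109.5 and 236 in KSL, 15.97 and 30.6 in LinNeg, and 0.719 to 20.9 with a median of 5.44 in the mature arrays. LinNeg replicate 1 lay within the mature range. All 16 mature arrays had Procr below their own median intensity, which ran from 20.3 to 26.8 over the arrays. The log2 differences were 2.53 ± 0.53 from LinNeg and 3.74 ± 0.40 from the mature mean.

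Esam stood at 242 and 301 in KSL and 51.8 and 46.8 in LinNeg. The mature arrays ran from 3.15 to 43.9 with a median of 14.5, so LinNeg was above all of them by a small margin. The differences of KSL were 2.30 ± 0.64 from LinNeg and 3.73 ± 0.48 from the mature mean.

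Of the adhesion receptor genes, Adgrg1 was at 1102 and 1175 in KSL, 284 and 310.4 in LinNeg, and 1.60 to 28.2 with a median of 4.10 in mature arrays. Its probe set is of the _x_at kind. Its other probe set, 1421118_a_at, gave 802 and 1052 in KSL, 239.6 and 297 in LinNeg and at most 47.8 in a mature array, so both readings place KSL above LinNeg and LinNeg above all mature arrays. Adgrl4 was at 2102 and 2651 in KSL, 337 and 636 in LinNeg, and 2.38 to 70.9 with a median of 36.1 in mature arrays. It lay below the array's own median on 4 of 16 mature arrays, while each of the other 7 genes did so on 12 or more. Its second probe set had 544 and 825 in KSL, 97.5 and 144 in LinNeg and at most 29.0 in a mature array.

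Vldlr had intensities of 366 and 588 in KSL, 22.8 and 66.4 in LinNeg, and 0.968 to 28.7 with a median of 12.7 in the mature arrays. LinNeg replicate 1 lay within the mature range and replicate 2 above it. The gene has 6 probe sets, and the one used, 1434465_x_at, is of the kind that can bind related transcripts. In 4 of the 6, both KSL arrays were above all other arrays, but probe sets 1442169_at (17.7 and 36.1 in KSL) and 1451156_s_at (14.6 and 9.42 in KSL) did not separate KSL from the mature arrays, which reached 23.6 and 17.8 there. Averaging the log2 values over the probe sets gave 2.04 for KSL minus LinNeg in place of 3.34 ± 0.65.

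Fgd5 was at 123 and 239 in KSL and only 6.77 and 11.9 in LinNeg. The mature arrays ran from 4.59 to 38.8 with a median of 13.5, and LinNeg lay within their range. The difference of KSL from LinNeg was 3.49 ± 0.50 and that from the mature mean 3.04 ± 0.37. The first depends on the pseudocount, at 4.08 with the 5th and 2.61 with the 50th percentile of all values.

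The secreted ligand Angpt1 was at 1182 and 1636 in KSL, 252 and 515 in LinNeg, and 0.574 to 53.7 with a median of 7.09 in the mature arrays, with no overlap between the 3. Its second probe set, 1421441_at, had 50.1 and 92.4 in KSL but 4.35 and 2.36 in LinNeg, a level within its mature range of 0.771 to 10.8. The difference of KSL from LinNeg was 1.93 ± 0.39, and it was 1.42 without LinNeg replicate 1 and 2.43 without LinNeg replicate 2. Over all 16 probe sets of the 8 genes, 14 had both KSL arrays above the 18 others, and 8 had both LinNeg arrays above the 16 mature ones.

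The genes differed in how much of their KSL level LinNeg retained. The LinNeg mean was 34.0% of the KSL mean for Cd34, 27.2% for Angpt1, 26.1% for Adgrg1 and 20.5% for Adgrl4. It was 18.2% for Esam, 13.5% for Procr, 9.35% for Vldlr and 5.15% for Fgd5. These shares depend on the array and the probe set. Taken from LinNeg replicates 1 and 2 singly, the share was 4.79% and 13.9% for Vldlr, 9.24% and 17.7% for Procr, and 17.9% and 36.6% for Angpt1. The second probe set of Angpt1 gave 4.71%, lower than any of the 8 shares above, that of Adgrl4 17.7% and that of Adgrg1 28.9%. The other probe sets of Vldlr all gave more than its 9.35%. The shares were 12.7%, 15.8% and 20.4%, and 19.1% and 44.0% from the probe sets that did not separate KSL from the mature arrays. For Cd34, Angpt1, Adgrg1, Adgrl4 and Esam both LinNeg arrays were above all mature arrays, which held for 9.27% of all genes tested.

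The replicate arrays of KSL were not alike for these genes. All 8 were higher in KSL replicate 2 than in replicate 1, by log2 differences from 0.09 (Adgrg1) through 0.27 (Cd34), 0.31 (Esam), 0.33 (Adgrl4), 0.47 (Angpt1), 0.68 (Vldlr) and 0.92 (Fgd5) to 1.06 (Procr). Over all genes tested 50.3% were higher in replicate 2, and 2.84% by a log2 difference of at least 1, while 3.88% were higher in replicate 1 by as much. The direction was not particular to the 8 genes. Of 269 genes called higher in KSL than in LinNeg and than the mature mean, 221 (82.2%) were higher in replicate 2, with a median difference of 0.35.

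Some markers of other lineages were higher in KSL replicate 1. The summed intensity of Csf1r, Cd68 and Itgam was 690.0 in KSL replicate 1 and 312 in replicate 2, of which Csf1r made up 601 and 233, and that of 12 megakaryocyte genes was 2073 in replicate 1 and 1319 in replicate 2. The 11 stromal genes were lower in replicate 1, at 375 against 417, and the sums for B, NK, Erythroblast and Neutrophil markers were also lower in replicate 1, none of them over 25.9. The part of these in the difference between the arrays was not tested. In LinNeg 7 of the 8 genes were higher in replicate 2, the exception being Esam at -0.13, and the largest differences were 1.31 for Vldlr and 1.01 for Angpt1. Of all genes, 54.1% were higher in LinNeg replicate 2. With 1 array on each side these differences have no replicate check.

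**Figure D2:**
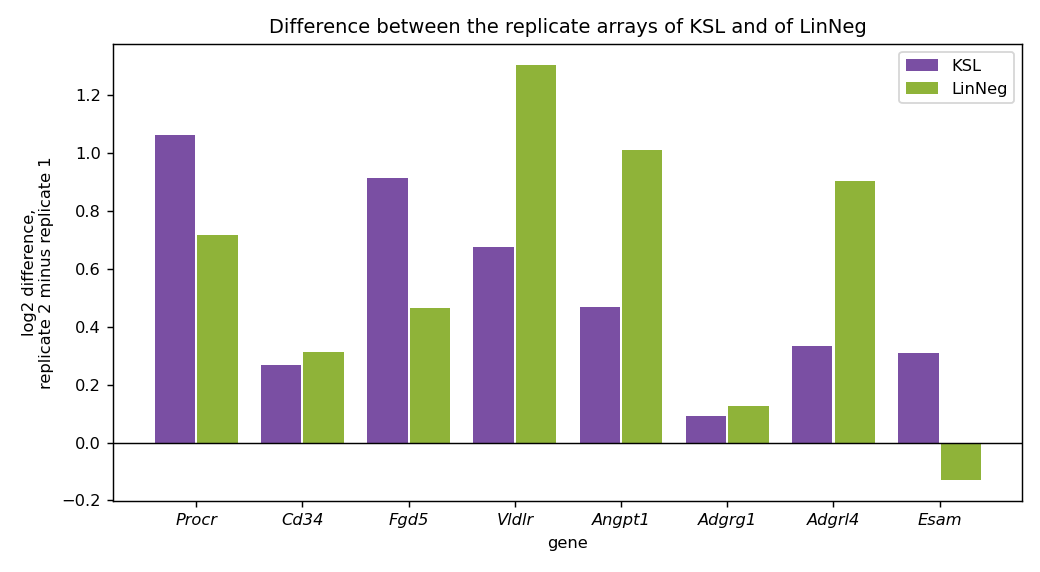
Log2 difference of replicate 2 minus replicate 1 for each of the 8 genes in KSL (left bar of a pair) and in LinNeg (right bar). All 8 KSL bars are above 0, from 0.09 for Adgrg1 to 1.06 for Procr, and the LinNeg bar of Esam alone is below 0.

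Differences among the 8 mature populations were tested as well. By the F test over all 8, Angpt1 and Adgrl4 differed among mature populations and Cd34 did so only marginally. That test did not call Procr, Fgd5, Vldlr, Adgrg1 and Esam. Procr passed the filter on low values through KSL alone, and Vldlr and Adgrg1 through KSL and LinNeg alone, so these 3 genes are near the floor in all mature populations. Their tests among mature populations compare means under the filter, and no conclusion is drawn from them. Cd34, Fgd5, Angpt1 and Esam passed it in 1 mature population each and Adgrl4 in 6. In the limma F test over the 8 populations, 3 of the 8 genes were called (adjusted p 6.0e-05 for Angpt1, 0.0011 for Adgrl4 and 0.037 for Cd34), where 73.5% of all genes were called. The choice of the genes used their mature levels, so nothing is read from that share. The other adjusted p values were 0.086 for Adgrg1, 0.25 for Fgd5, 0.33 for Procr, 0.59 for Esam and 0.78 for Vldlr. With NK left out, the test called Angpt1 (0.017) and Adgrl4 (0.0020) but not Cd34 (0.18), with 73.1% of all genes called. Without NK every mature mean of Angpt1 and Cd34 lies under the filter, so no conclusion is drawn from their values there. The call of Adgrg1 depends on the probe set, with an adjusted p of 0.0078 for 1421118_a_at.

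Each mature population was then set against the mean of the other 7. Of 64 such pairs of gene and population, 5 were called higher and 4 lower, at an adjusted p under 0.05 and a log2 difference of at least 1. Of all genes tested, the share called higher was 8.46% in B, 8.9% in CD4T, 9.58% in CD8T, 12.7% in Neutrophil and 11.2% in Monocyte, and the share called lower was 3.13% in NK, 5.87% in NKT, 28.8% in Erythroblast and 19.5% in Neutrophil. None of the 8 genes was called in these 9 directions. The background of the other 7 directions stands beside each call.

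NK was called higher for 3 of the 8 genes, where 8.93% of all genes were. Angpt1 was at 41.6 and 53.7 in NK and at most 15.3 in any other mature array, so the groups did not overlap (log2 difference 2.11 ± 0.30, limma adjusted p 2.6e-05). Its second probe set did not repeat this, with 1.69 and 10.8 in NK. Cd34 was at 32.6 and 20.4 in NK, against at most 20.6 in other mature arrays (1.22 ± 0.38, adjusted p 0.025), and the call ended without NK replicate 1 (0.95, adjusted p 0.31) or NK replicate 2 (1.49, adjusted p 0.072). Adgrl4 was at 53.4 and 70.9 in NK, overlapping Neutrophil (52.8 and 53.8) and CD8T (54.0 and 31.0). Its call (1.03 ± 0.36, adjusted p 0.043) ended under 20 of 29 alternatives.

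Procr was also highest in NK among mature populations, at 11.1 and 20.9, without a call (0.94 ± 0.40, adjusted p 0.11). The NK means were 1.35% of the KSL mean for Cd34, 3.38% for Angpt1, 2.61% for Adgrl4 and 9.27% for Procr. Kit was at 136 ± 34.3 in NK, 148 ± 37.9 in Neutrophil and 176 ± 26.8 in Monocyte, against 6.74 ± 5.83 to 38.7 ± 1.61 in the other mature populations. The part of the macrophage markers in the NK values was not tested.

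Adgrl4 was low in CD4T, at 6.17 and 6.65, against 20.8 to 70.9 in the mature arrays other than B and CD4T (log2 difference -1.68 ± 0.36, adjusted p 0.0012, and -1.57 with adjusted p 0.0023 when NK was left out). It was called lower in B as well, at 25.8 and 2.38 (-1.24 ± 0.36, adjusted p 0.011). The B arrays differ widely, and without B replicate 2 the difference was -0.32 (adjusted p 0.62). Lower calls were made for 6.68% of all genes in CD4T and 9.17% in B. The second probe set of Adgrl4 was at 5.77 and 8.26 in CD4T, 2.23 and 7.90 in B and 0.596 to 29.0 in the other mature arrays.

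Fgd5 was called higher in NKT, at 36.2 and 38.8, than in the other mature arrays, none of which exceeded 23.1 (1.18 ± 0.38, adjusted p 0.024, where 9.41% of genes were called higher). The call ended without NKT replicate 1 (adjusted p 0.13) or replicate 2 (adjusted p 0.16), and with the 50th percentile as pseudocount. The F test over the mature populations did not call Fgd5. Adgrg1 was called higher in Erythroblast, at 8.16 and 28.2, than in the other mature arrays, which reached 6.22 (1.12 ± 0.30, adjusted p 0.0027, where 17.6% of genes were called higher). Its Erythroblast mean of 4.51 on the log2 scale is itself under the filter of 4.89. Adgrg1 thus entered this test only through KSL and LinNeg, for which it was chosen, and no conclusion is drawn from the call. Without Erythroblast replicate 2 the difference was 0.51 (adjusted p 0.23). Angpt1 was called lower in Monocyte, at 0.574 and 0.9499 (-1.14 ± 0.30, adjusted p 0.0051), and in CD8T, at 0.901 and 1.60 (-1.04 ± 0.30, adjusted p 0.011). Both comparisons count NK among the other populations, and with NK left out neither was called. Lower calls were made for 8.65% of all genes in Monocyte and 8.63% in CD8T.

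**Figure D3:**
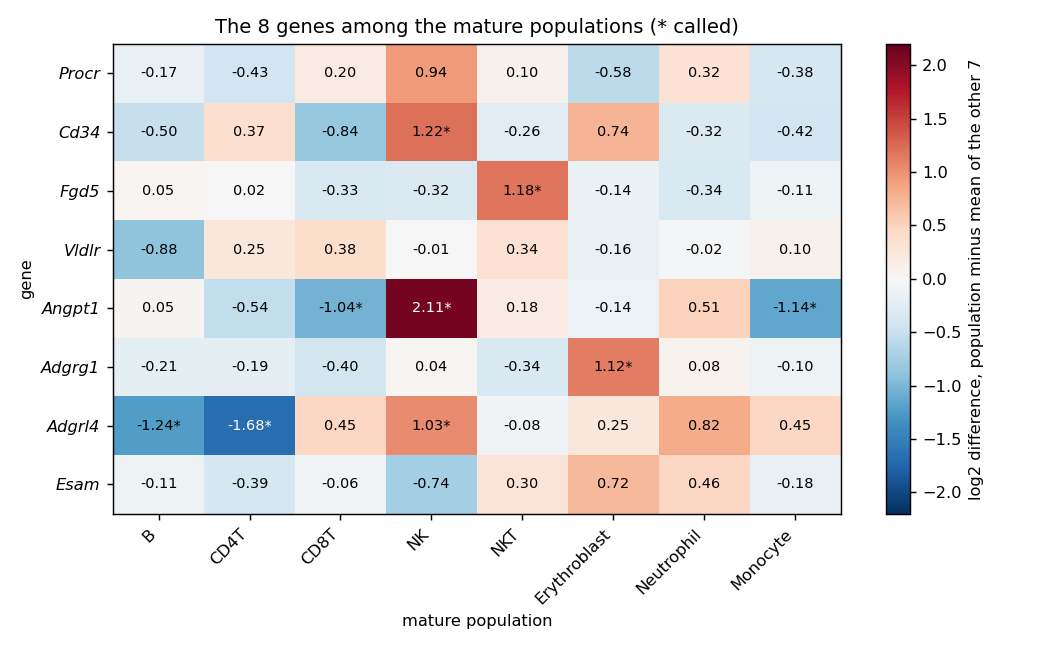
Log2 difference of each mature population (columns) minus the mean of the other 7, for the 8 genes (rows), with a star where the difference was called. Angpt1 in NK has the largest rise (2.11) and Adgrl4 in CD4T the largest fall (-1.68), while the rows of Procr, Vldlr and Esam hold no call.

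In the order of levels, most neighbours among the mature populations did not differ beyond their spread. For Procr every neighbouring pair from LinNeg down to Erythroblast overlapped, and for Vldlr and Esam every pair of mature neighbours did. For Angpt1 the order NK, then Neutrophil, was free of overlap, as were B over Erythroblast, Erythroblast over CD4T and CD4T over CD8T. These lower steps lie at intensities under 10.

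The 8 genes were also compared by pattern, over the population means of the log2 values. Between pairs of the 8 genes, Pearson r over the 10 populations ran from 0.59 (Cd34 with Fgd5) to 0.98, with a median of 0.89 over 28 pairs. Over the 8 mature populations alone it ran from -0.43 to 0.75 with a median of 0.13, and all 28 pairs share the high KSL level for which the genes were chosen. These r values describe 10 or 8 points from the same arrays and carry no test.

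Among other genes tested, Tmem98 was the most like both Cd34 (r = 0.991) and Adgrg1 (r = 0.991), followed by Car3 (0.986 and 0.989), and then by Bex1 for Cd34 (0.983) and by Afap1l1 for Adgrg1 (0.987). Angpt1 was most like Bex1 (0.985), Dcaf12l1 (0.972) and Ltbp3 (0.972), and Procr like Ltbp3 (0.965), Hmga2 (0.962) and Pkia (0.961). Vldlr was most like the transcription factor gene Mecom (0.979), which had an intensity of 545 in KSL and 31.7 in LinNeg, then Myl10 (0.976) and 8430419K02Rik (0.975). Esam was most like Myl10 (0.977), Mn1 (0.969) and Tle2 (0.967). Fgd5 was most like Cadps2 (0.958), at 183 in KSL and 18.7 in LinNeg and highest among mature populations in NKT (42.1), and then Hspa12b (0.944) and Shroom4 (0.941). Adgrl4 was most like Ttpa (0.967), Hoxa9 (0.964) and Ak4 (0.963).

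Genes of the same families and pathways were then examined. The choice of the 8 genes did not use them, but the lists were drawn up with earlier results of these data known. Their tests are therefore not independent of these data. In 8 lists with 111 entries, 84 genes were tested. Against LinNeg 4 of them were called higher in KSL and 2 lower, where 3.07% and 2.45% of all genes were, with a list median of -0.02 and a median of all genes of 0.01. Against the mean of the mature populations 24 were higher and 10 lower, where 16.2% and 7% of all genes were, with medians of -0.13 and 0.06. All 34 calls against the mature mean were also made with NK left out. Most relatives of the 8 genes did not pass the test in either comparison.

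Both angiopoietin receptors were higher in KSL than in mature populations. Tek, the receptor of Angpt1, had intensities of 68.3 and 73.6 in KSL, 26.4 and 34.5 in LinNeg and a mean of 10.7 in mature populations (log2 difference from the mature mean 2.23 ± 0.32, limma adjusted p 1.8e-05, and from LinNeg 1.07 ± 0.43, adjusted p 0.15). Tie1, its orphan relative, was at 29.8 and 40.8 in KSL, 1.03 and 2.84 in LinNeg and a mean of 1.71 in the mature populations. It was called against both LinNeg (2.27 ± 0.40, adjusted p 0.0014) and the mature mean (2.32 ± 0.30, adjusted p 5.4e-06). Of 7 listed genes 5 were tested, and Angpt4, Ptprb and Dok2 were not called.

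In the protein C list, 0 of 11 genes tested were called between KSL and LinNeg and 3 were higher than in mature populations. F2r, the thrombin receptor that activated protein C can also cleave, was at 3051 and 2277 in KSL and 2960 and 2595 in LinNeg, with a mature mean of 1703 (3.05 ± 0.23 from the mature mean, adjusted p 6.4e-09). Its NKT mean of 4081 exceeded that of KSL, so the rise is against an average and does not hold for each mature population. Tfpi, an inhibitor of tissue factor, averaged 239.8 ± 21.3 in KSL and 241 ± 0.546 in LinNeg (2.49 ± 0.24 from the mature mean, adjusted p 1.3e-07). F2rl3, another thrombin receptor, differed from the mature mean by 2.27 ± 0.31 (adjusted p 8.0e-06). Thbd, which encodes thrombomodulin, had means of 49.8 in KSL and 59.1 in LinNeg and was not called.

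Of 14 tested genes of the LDL receptor family and reelin list, 0 were called against LinNeg, while 3 were higher and 3 lower in KSL than in the mature mean. Lrp8, the other reelin receptor, averaged 78.3 in KSL and 83.2 in LinNeg and was not called. Reln itself was lower in KSL, at 11.6 and 18.2, than in the mature mean of 116, which rests on 641 in Erythroblast (-1.12 ± 0.36, adjusted p 0.017), and the call ended without either KSL array. Sorl1 fell by 3.10 on the log2 scale against the mature mean (adjusted p 1.1e-10). Its mean of 84.6 in KSL was nevertheless above the 30.4 of Erythroblast. Mylip, the ubiquitin ligase that degrades Vldlr, was at 710.3 and 930.0 in KSL and a mature mean of 1806 (-1.05 ± 0.15, adjusted p 1.9e-05), with 382 and 736 in LinNeg. Without KSL replicate 1 that difference fell under the threshold of size. Apoe had a positive log2 difference (2.28 ± 0.48, adjusted p 0.00081) although its mature mean intensity of 1204, which rests on 6391 in NK, was above the 765 of KSL. With NK left out it was 3.06 (adjusted p 5.0e-05). The call ended without KSL replicate 1 (adjusted p 0.058). The family members Lrp6 and Lrp12 were higher than in the mature mean (1.33 ± 0.38, adjusted p 0.0079, and 1.69 ± 0.39, adjusted p 0.0015), the call of Lrp6 ending without either KSL array.

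Among relatives of Fgd5, no gene of 13 was called between KSL and LinNeg. Against the mature mean Fgd1 was higher, at 51.2 ± 6.35 in KSL and 13.8 in the mature mean (1.66 ± 0.47, adjusted p 0.0081), and so was Fgd2 at the threshold (1.00 ± 0.27, adjusted p 0.0051), with a mean of 544 in B. The call of Fgd1 ended without either KSL array and that of Fgd2 under 10 of 29 alternatives, KSL replicate 2 left out among them. Cdc42ep2 was lower (-1.92 ± 0.31, adjusted p 5.8e-05). The GTPase gene Cdc42 was at 2248 in KSL and 2385 in LinNeg, against a mature mean of 3636, a difference under the threshold of size (-0.60 ± 0.11, adjusted p 0.00029).

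In the list of sialomucins and selectins, 0 of 6 tested genes were called against LinNeg. Podxl, the closest relative of Cd34, was at 51.9 in KSL, 31.3 in LinNeg and 19.5 in the mature mean, without a call. Prom1, which encodes the human stem cell marker CD133, was lower in KSL, at 11.8 and 10.3, than in the mature mean of 359 (-1.24 ± 0.39, adjusted p 0.014). That mean rests on Monocyte, at 1596, and Neutrophil, at 1224. The fall does not hold for each mature population. Prom1 averaged 2.27 in B, 1.21 in CD4T, 4.57 in CD8T and 8.32 in NKT, below both KSL arrays. It averaged 13.2 in NK and 18.9 in Erythroblast, above both. The call of Prom1 ended without either KSL array. Selp and Spn were higher than in the mature mean (1.55 ± 0.29, adjusted p 0.00028, and 1.04 ± 0.15, adjusted p 1.2e-05). Neither rise holds for each mature population. Selp averaged 130 in KSL and 141 in Neutrophil. Spn averaged 1221 in KSL but 2032 in CD4T, 1957 in NK, 1329 in NKT and 1247 in CD8T. The call of Spn ended with the 50th percentile as pseudocount and with averaging over probe sets.

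Of the 17 other adhesion G protein-coupled receptors tested, 0 were higher and 1 lower in KSL than in LinNeg, while 4 were higher and 3 lower than in the mature mean. Adgrl2, a latrophilin, was at 312 and 250.4 in KSL and 229 and 232 in LinNeg, above a mature mean of 32.6 (3.01 ± 0.33, adjusted p 6.3e-07). Adgrg3 was at 781 and 716 in KSL and 337 and 519 in LinNeg (3.27 ± 0.29 from the mature mean, adjusted p 5.9e-08), yet at 1069 in Neutrophil. Adgra3 and Adgrd1 differed from the mature mean by 2.60 ± 0.40 and 1.62 ± 0.32. Adgre5, which encodes the leukocyte receptor CD97, was at 115 and 184 in KSL, 303 and 328 in LinNeg, with a mature mean of 1347 (-1.08 ± 0.22 from LinNeg, adjusted p 0.0038, and -2.54 ± 0.16 from the mature mean, adjusted p 9.1e-10). The fall from the mature mean does not hold for Erythroblast, at 18.4. The call against LinNeg ended without KSL replicate 1 (adjusted p 0.069). Adgre1, which encodes the macrophage marker F4/80, and the latrophilin gene Adgrl3 were lower than in the mature mean (-1.62 ± 0.27, adjusted p 0.0001, and -1.99 ± 0.41, adjusted p 0.00058). With NK left out the difference of Adgre1 was -1.12 (adjusted p 0.0029). Its KSL mean of 36.2 was no lower than those of CD4T (35.8) and CD8T (30.6).

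Of 8 tested genes of the junctional adhesion molecule list, to which Esam belongs by family, F11r (also called Jam1) was called higher in KSL than in LinNeg. It was at 111 and 211 in KSL, 16.4 and 19.0 in LinNeg and a mature mean of 16.8, so KSL and LinNeg did not overlap (2.71 ± 0.46, adjusted p 0.00091, and 2.96 ± 0.34 from the mature mean, adjusted p 1.4e-06). Tjp1, a scaffold of tight junctions, was higher in KSL than in the mature mean (2.00 ± 0.31, adjusted p 3.4e-05) but at 82.5 and 86.5 in KSL against 145 and 178 in LinNeg, without a call there. Its Erythroblast mean of 117 was also above both KSL arrays. The scaffold gene Magi1 was lower than in the mature mean (-1.16 ± 0.41, adjusted p 0.028), a call that ended without KSL replicate 2 (adjusted p 0.33). Jam2 and Jam3 had means of 28.8 and 4.93 in KSL and 22.3 and 14.3 in LinNeg, and were not called.

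Among 10 tested genes of other stem cell surface proteins, 2 were higher and 1 lower in KSL than in LinNeg, and 6 higher and 1 lower than in the mature mean. Flt3, a cytokine receptor of early progenitors, was at 651 and 1201 in KSL and 182 and 290.1 in LinNeg (1.91 ± 0.57, adjusted p 0.042, and 5.10 ± 0.43 from the mature mean, adjusted p 2.6e-08). Cd27 was at 321 and 338 in KSL and 118 and 133 in LinNeg (1.35 ± 0.39, adjusted p 0.039). The calls of Flt3 and Cd27 against LinNeg ended without any 1 of the 4 KSL and LinNeg arrays. Thy1 was lower, at 48.1 and 39.9 in KSL, 181 and 206 in LinNeg, with a mature mean of 1302 (-1.99 ± 0.30 from LinNeg, adjusted p 0.00034). That mean rests on CD4T, CD8T, NKT and NK, at 2629, 3559, 3614 and 545. Thy1 averaged 15.8 in B, 30.6 in Erythroblast, 13.2 in Neutrophil and 13.5 in Monocyte, below both KSL arrays. Itga2b, Eng, Itga6 and Robo4 were higher than in the mature mean, by 3.02 ± 0.28, 2.85 ± 0.34, 1.64 ± 0.19 and 1.33 ± 0.33, and were not called against LinNeg. The rise of Itga6 does not hold for each mature population, with means of 520 in KSL, 757 in CD4T and 567 in CD8T. The call of Robo4 ended without KSL replicate 1 (adjusted p 0.056). Slamf1, the gene of CD150, was at 93.0 in KSL, 47.9 in LinNeg and 127 in the mature mean, without a call.

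**Figure D4:**
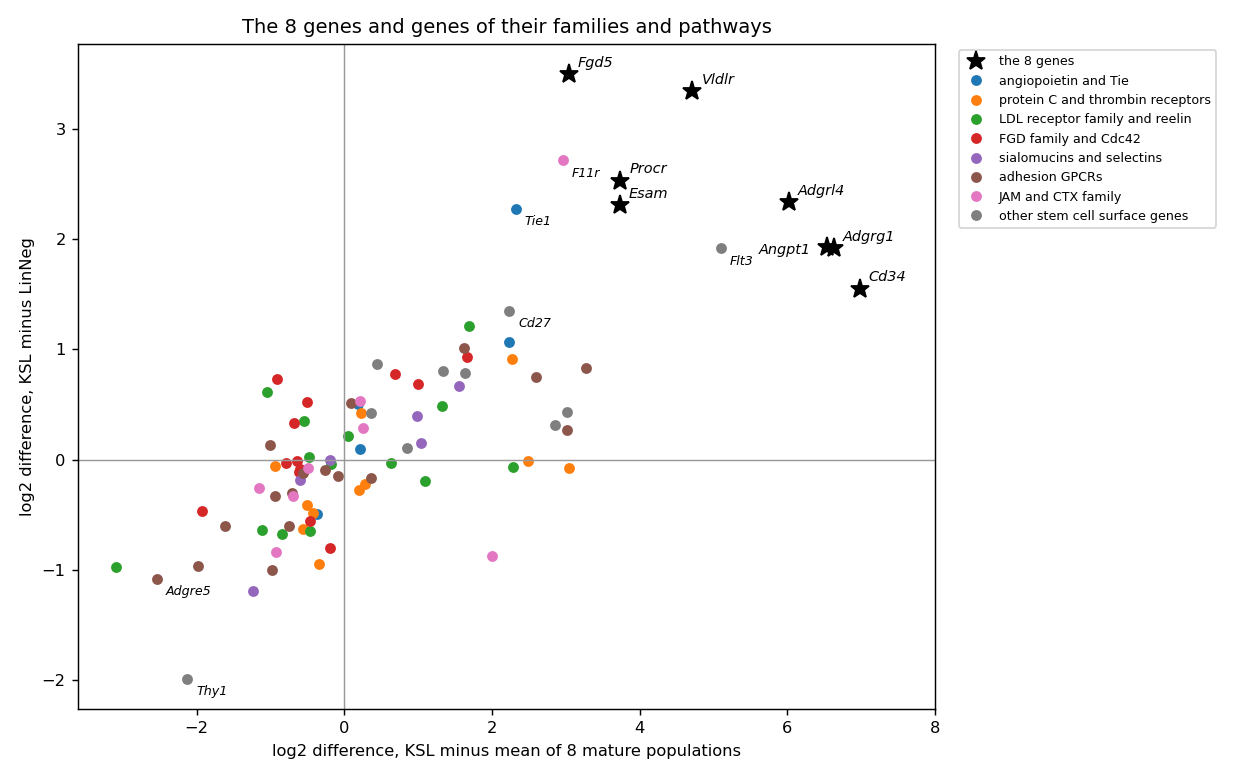
Log2 difference of KSL minus the mean of the 8 mature populations (horizontal) and of KSL minus LinNeg (vertical) for the 8 genes (stars) and for the 84 tested genes of their families and pathways (circles, coloured by list). The 8 genes lie at the upper right, as chosen, most circles lie nearer to 0, and the named circles were called between KSL and LinNeg.

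Since most of the 8 genes are also endothelial genes, markers of the endothelium were read beside them. The summed intensity of 19 endothelial genes was 954 and 830 in KSL, 706 and 699.5 in LinNeg and 301 to 702 in the mature arrays. Within the list Egfl7 (279), Vwf (165) and Emcn (77.4) had the highest KSL means, while Cdh5 (5.29 in KSL and 11.7 in the mature mean), Pecam1 (24.0 and 36.9) and Kdr (22.2 and 34.6) were not called or not tested. The part of endothelial RNA in the KSL levels was not tested. Those called higher in KSL than in the mature mean were Vwf (3.51 ± 0.39), Egfl7 (3.04 ± 0.42), Tie1, Emcn (1.88 ± 0.37) and Robo4, 5 of 17 tested, where 16.2% of all genes were. Flt1 was lower (-1.38 ± 0.37, adjusted p 0.0050), a call that ended without either KSL array. Against LinNeg, Tie1 and Emcn were higher and Plvap was lower (-1.84 ± 0.48, adjusted p 0.022). The call of Emcn ended under 11 of 28 alternatives, among them leaving out any single KSL or LinNeg array. That of Plvap ended without KSL replicate 2 and without either LinNeg array. For the megakaryocyte lineage, which also expresses some of the 8 genes, 12 genes summed to 2073 and 1319 in KSL, 2133 and 2818 in LinNeg and 269 to 1371 in the mature arrays. Against the mature mean 6 of the 12 were called higher in KSL, Pf4 by 3.76 ± 0.32, while Pf4 was lower in KSL than in LinNeg (-1.46 ± 0.42, adjusted p 0.037). The latter call ended without KSL replicate 2 and without either LinNeg array. The 11 stromal genes summed to 375 and 417 in KSL, 251 and 369 in LinNeg and 144 to 333 in the mature arrays.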

How the data were processed

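RNA of 10 sorted populations, 2 arrays each, was analysed. ISOGEN served for RNA extraction, and an amount equal to 3000 cells was amplified over 2 cycles and labelled with biotin, per the labels' protocols. The ratio of 3′ to 5′ control probe sets ran from 2.36 to 6.10 for Gapdh. The deposited table holds linear intensities per probe set, from 0.0251 to 19431, which the authors had brought to one trimmed mean per array; for summarising software and background correction the sources used here name nothing. Depth does not apply to arrays, and precision is limited by 2 arrays per population. Of 45101 probe sets, 64 were controls, 34945 had 1 gene symbol, 932 several and 9160 none in the platform annotation, whose symbols did not change through the RefSeq table of GRCm38.p6.

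From these values log2(intensity + 6.75) was computed without further scaling. Of 18193 genes, 14063 entered the tests, each with at least 1 population mean over 4.89 (log2), the overall median. A model of all 20 arrays was fitted in limma 3.58.1 (R 4.3.3) with 1 factor of 10 levels, lmFit and eBayes with a trend (10 residual and 8.46 prior degrees of freedom). Standard errors and adjusted p values (Benjamini-Hochberg over all genes tested) come from this model. A difference was called at an adjusted p under 0.05 and an absolute log2 difference of at least 1. The p values rest on the spread between the 2 arrays of a population, pooled over populations, and not on the spread among populations of a mean; no animals are named. Named genes are the 8 genes, called genes of the lists, a few uncalled ones picked after their values were seen, and the 3 genes most like each by Pearson r. The 8 genes and all lists were chosen with earlier results of these data known. The steps were tested on simulated data. Alternatives covered pseudocount, normalization, filter, probe set choice, variance trend, a replicate block and leaving out each array. No column of the table was left unused.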

Additional observations from a re-analysis of the deposited data

How the results depend on the processing

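All 8 genes kept a positive difference of KSL from LinNeg and from the mature mean in all 488 values computed under other settings. The genes were chosen for this pattern, so the constant sign follows from the choice and is no support for it. The size moved with the pseudocount and with averaging over probe sets, which gave 2.71 in place of 4.72 for Vldlr and 4.70 in place of 6.54 for Angpt1 (KSL minus the mature mean). The difference from the mature mean was 4.68 for Procr, 7.80 for Cd34, 7.45 for Angpt1 and 7.65 for Adgrg1 with the 5th percentile as pseudocount, and 2.66, 5.92, 5.44 and 5.37 with the 50th. Among mature populations, Angpt1 and Adgrl4 passed the F test under all 29 alternatives other than those chosen after seeing the data, Cd34 under 15 (adjusted p 0.011 to 0.15) and Adgrg1 under 5 (0.0058 to 0.71), while Procr, Fgd5, Vldlr and Esam passed under 0. The number of genes called between KSL and LinNeg, 777, was 310 without KSL replicate 2 and 377 without LinNeg replicate 1, and ranged up to 821 when other arrays were left out. The number for KSL minus the mature mean was 2847 to 3308 in that way, and that of the F test 9942 to 10262. With the replicate block, a pairing by number, 778 genes were called between KSL and LinNeg, 3256 between KSL and the mature mean and 10317 in the F test. Deviations of same-numbered arrays correlated by -0.09 to 0.21 over 45 pairs of populations, with 1 above 0.1. These values show no large effect shared by number. They cannot tell whether same-numbered arrays share animals, which the labels do not give. Of the calls of the 8 genes in mature populations, the block ended that of Adgrl4 in NK (adjusted p 0.0505). Leaving NK out, and taking the brightest probe set by the mean of log2 values, were alternatives chosen after seeing the data. The log2 mean called 745 genes between KSL and LinNeg, took 1421118_a_at for Adgrg1 (1.76 from LinNeg, 5.78 from the mature mean), and turned the megakaryocyte gene Gp1bb to -0.16 (KSL minus the mature mean, 1.49 otherwise), since another of its probe sets was then read.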

Other observations

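Pdgfrb, a receptor of mesenchymal and pericyte cells and a member of the stromal marker list, was singled out after its values were seen. It was at 208 and 237 in KSL, 61.3 and 138 in LinNeg and 6.99 on average in mature cells (log2 difference from the mature mean 4.34 ± 0.37, limma adjusted p 3.1e-08). The difference from LinNeg was not called (1.21 ± 0.49, adjusted p 0.15). Of the collagen genes of the same list, Col1a1 and Col3a1 had means of 10.5 and 6.78 in KSL, and Col1a2 was at 38.4 and 81.2 in KSL, 67.5 and 59.3 in LinNeg, with a mature mean of 35.1 and no call.

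Of the 269 genes called higher in KSL than in LinNeg and than the mature mean, 48 (17.8%) had their highest mature mean in NK, against 6.66% of all genes tested, and 34 (12.6%) in Erythroblast, against 28.5%. In the other 6 populations the shares were 6.69% to 16.4%. Of the 8 genes described here, 4 had their highest mature mean in NK, 2 in Erythroblast, 1 in CD8T and 1 in NKT, where of all genes 10.9% were highest in CD8T and 10.3% in NKT.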
